A study of Mus musculus with 21 samples.

Results

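PreGM cells and KLS cells of C57BL/6 mouse bone marrow were compared on 6 one-colour Agilent arrays, 3 titled PreGM and 3 titled KLS, out of 21 arrays of 7 sorted fractions. Members were taken by array title alone, with no measured value used. By the labels, KLS cells were lin- ckit+ sca1+, a gate that holds stem cells and multipotent progenitors. PreGM cells were labelled lin- ckit+ sca1+ CD150- CD105- FGCrI/II-, and stand before GMP, the granulocyte-macrophage progenitor, labelled with the same lin- ckit+ sca1+ start, CD150- and FCGrI/II+. The lineage cocktail shared by these gates was B220, CD3, CD4, CD8, CD41, Mac1, Gr1 and Ter119, so cells with surface Mac1 or Gr1 should have been left out of both fractions. No treatment, transgene or deletion is named for any group, and the animals' age and number are not given in the sources used here. The question the comparison answers is which genes were gained and lost at the first myeloid step away from the multipotent gate.

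As background, stem and multipotent cells express transcription factors and receptors that keep them self-renewing, together with low levels of genes of several lineages. Entry into the granulocyte-monocyte lineage is driven by PU.1 (the product of Spi1), C/EBPα and IRF8, which switch on cytokine receptors, granule proteases and innate sensors. Granules are made in order: primary granules with myeloperoxidase and serine proteases come first, and secondary granules with lactoferrin and cathelicidin come at later stages.

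Each value below is the log2 of a probe's processed signal less the 75th percentile of that array, so 0 is the brightness that 75 percent of the array's probes stayed under, and 1 unit is a factor of 2. A gene was called where limma, fitted over the 21 arrays, gave a Benjamini-Hochberg adjusted p below 0.05 and a change of at least 2-fold; changes are PreGM minus KLS with their standard error, n = 3 arrays each. The standard errors and p-values rest on a gene's spread within all 7 fractions, not on that of the KLS and PreGM arrays alone. For a given gene they can therefore be wider or narrower than the values by array. The labels do not say that arrays of 1 fraction came from separate animals or pools, so this spread may be technical. Between 65 and 77.4 percent of spots were well above background on the KLS arrays and between 62.5 and 68.2 percent on the PreGM arrays, and no spot was saturated. Arrays correlated at 0.984 to 0.985 within KLS, 0.981 to 0.993 within PreGM and 0.952 to 0.964 between the fractions. A level measures RNA in a sorted population, in which fewer cells of a type and less RNA per cell cannot be told apart. KLS lay on 3 slides and PreGM on 3 others, so no comparison within a slide was possible.

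The third PreGM array stood apart from the first and the second. Xist, the RNA that coats the inactive X chromosome, was at 5.53 and 5.61 on PreGM replicates 1 and 2 and at -6.72 on PreGM replicate 3, against -6.70, -7.48 and -5.57 on the KLS arrays. Ddx3y, a Y-linked helicase, was at -6.18 and -7.22 on PreGM replicates 1 and 2 and at 1.41 on replicate 3, against 1.69, 1.93 and 1.72 in KLS. The KLS arrays and PreGM replicate 3 therefore carried the Y-linked transcript, and the other PreGM arrays carried Xist. Of 5 X inactivation and Y-linked genes tested, 1 was above background on PreGM replicates 1 and 2 and on every GMP array. On PreGM replicate 3, every KLS array and every array of PreMegE, the first erythroid fraction, 4 were. The comparisons of GMP and PreMegE with PreGM given below hold this split too. The part of these transcripts in the other results was not tested. The comparison with KLS was repeated with PreGM replicate 3 alone, an alternative added after the data were seen. That alternative leaves 1 PreGM array, so a call lost in it cannot be told from the effect of fewer arrays. With PreGM replicate 3 left out instead, 88.6 percent of the calls made with all 6 arrays were made again with the same direction.

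Of 29527 probes tested, 2549 (8.63%) were called: 623 (2.11%) were higher in PreGM and 1926 (6.52%) were lower. With no minimum fold the balance turned, to 4123 probes higher (14.0%) and 3440 lower (11.7%), so losses outnumbered gains among changes of 2-fold or more only. The median change over all probes tested was 0.06. Scaling the arrays to their spike-in RNAs instead moved that median to -0.56 and the calls to 196 higher and 5405 lower. That scaling lowered the change of the median probe by 0.61, so changes between 0 and about that size turn below 0 under it; every change below is relative to the array's own 75th percentile. Of 885 genes in 43 lists of gene families and pathways, 857 were matched to a probe by symbol and 836 distinct genes passed the filter on dim probes. In the shares of each list that were called, lists of granule and myeloid receptor genes leaned to the higher side, and macrophage, stem cell, immediate early and interferon lists leaned to the lower side. Every list count below stands beside the shares over all probes, 2.11% higher and 6.52% lower.

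**Figure D1:**
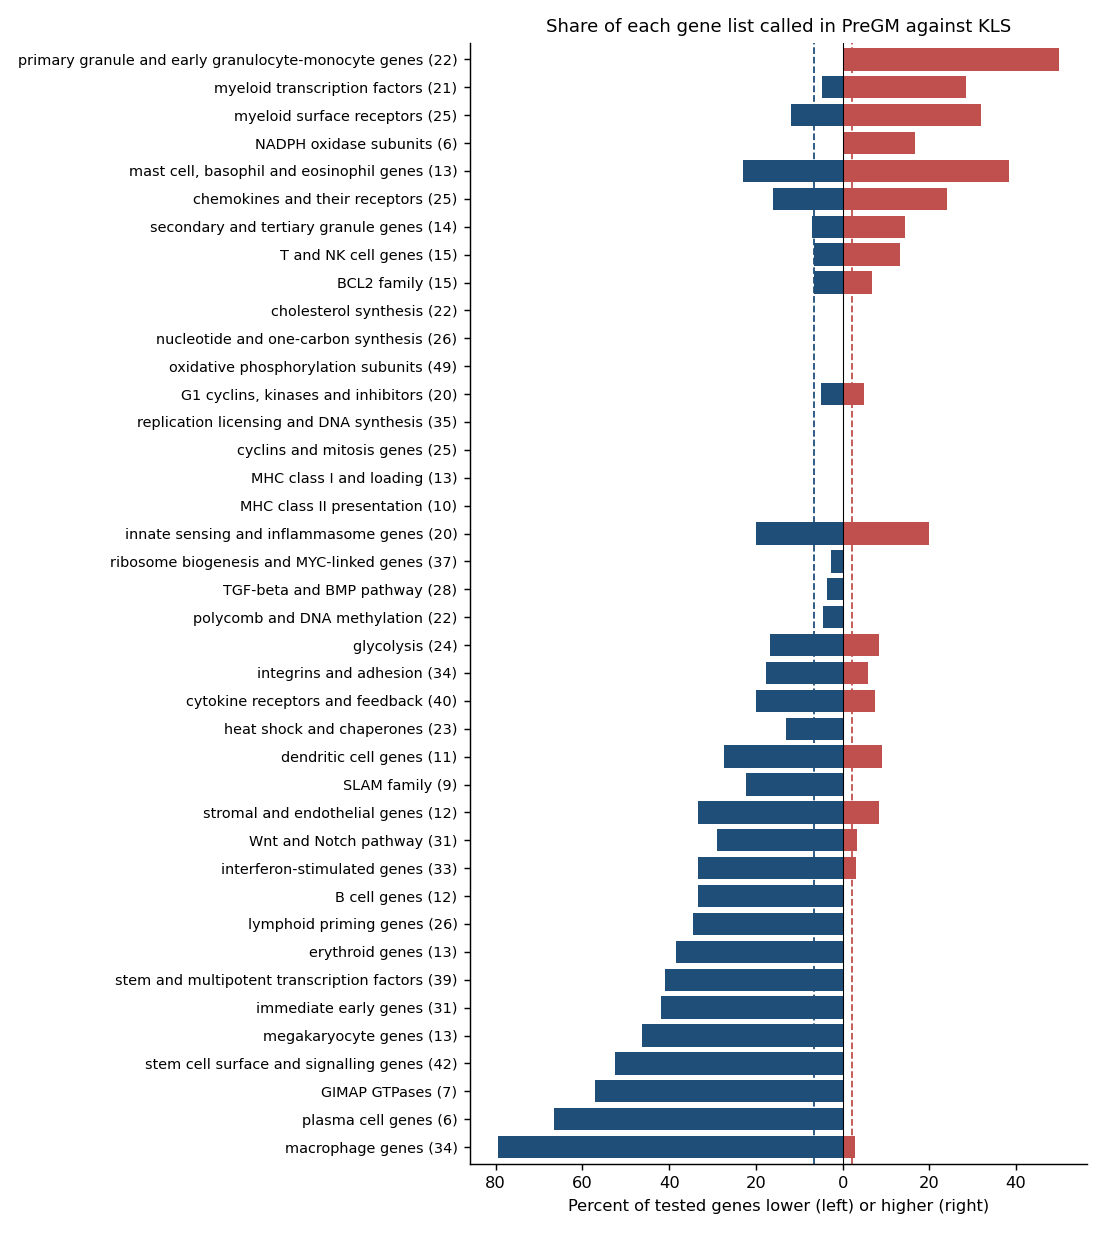
For 40 gene lists, the percent of tested genes called higher in PreGM (red, right) and lower in PreGM (blue, left) against KLS, with dashed lines at the shares over all probes tested, 2.11 and 6.52 percent. The macrophage list extends farthest to the left, with 27 of 34 tested genes called lower, and primary granule genes reach farthest to the right, with 11 of 22 called higher.

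Among the antigens used for sorting, the transcript of Sca1 fell although both labels state sca1+. The PreGM label lists the same gate as that of CFUe, a later erythroid fraction, and in the published dissection of marrow progenitors that the series follows, pre-GM cells and GMP are Sca1-negative, so the labelled gate is uncertain. Ly6a, which encodes Sca1, was at 2.64, 2.38 and 2.70 in KLS and at -0.43, -0.23 and -0.28 in PreGM, a fall of 2.88 ± 0.36 (adjusted p = 2.7e-05), with no overlap between the fractions. Slamf1, which encodes CD150, fell from -3.28, -2.86 and -2.86 in KLS to values not well above background on any PreGM array, at least 4.42-fold lower, although another probe for it changed by -0.72. Flt3, a cytokine receptor of multipotent and early lymphoid progenitors, fell from 2.04, 2.44 and 1.76 to 0.76, 0.89 and 0.65 (-1.32 ± 0.26, adjusted p = 0.0015). A bound of this kind sets the mean of the brighter fraction against the lowest signal that was well above background on each array of the other.

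Among the other genes of the sorting list, only Fcgr2b was called. The I/II of the labels does not name Fcgr3 and could name Fcgr1, which was not on this list. Fcgr1 was lower in PreGM and is given with the surface receptors. Eng, which encodes CD105, changed by -0.40 ± 0.11 (adjusted p = 0.016), under 2-fold, and Cd34 by 0.18 ± 0.72 (adjusted p = 0.89). The Fc receptor gene Fcgr2b was higher by 1.43 ± 0.45 (adjusted p = 0.027), but its adjusted p lay between 0.054 and 0.076 when any 1 of the 6 arrays was left out. Fcgr3 changed by 1.04 (adjusted p = 0.062) and Itga2b, which encodes CD41, by 0.64 (adjusted p = 0.079), neither called.

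Of the 3 transcription factors that the study followed, Spi1 and Gata1 were called higher and Gata2 was not called. Spi1 was at -0.93, -0.79 and -0.56 in KLS and at 0.84, 0.78 and -0.19 in PreGM, higher in every PreGM array (1.24 ± 0.36, adjusted p = 0.017). Its adjusted p rose to 0.060, 0.053, 0.082 and 0.073 without KLS replicate 1, KLS replicate 2, PreGM replicate 1 or PreGM replicate 2. Gata1, the factor of erythroid and megakaryocytic cells, rose from -2.31, -2.19 and -1.43 to -0.93, -0.92 and -0.43 (1.22 ± 0.24, adjusted p = 0.0015), a small step beside its 4.46 in PreMegE, the first erythroid fraction, against the same KLS arrays. Gata2, a stem and progenitor factor, was at 2.56, 2.71 and 2.93 in KLS and 2.67, 2.60 and 3.08 in PreGM, which overlap (0.05 ± 0.21, adjusted p = 0.89). Under spike-in scaling neither Spi1 nor Gata1 was called, and with slide as a fixed term Gata1 was not (0.92, adjusted p = 0.18).

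Primary granule and early granulocyte-monocyte genes had the largest share of genes called higher among the 40 lists plotted. Of 22 genes tested, 11 were called higher and 0 lower (1 lower at an unadjusted limma p below 0.05), and the median change was 1.1 beside 0.06 over all probes. Haptoglobin, Hp, a plasma and granule protein, was at -0.58, -0.74 and 0.05 in KLS and at 3.30, 2.92 and 3.64 in PreGM (3.71 ± 0.42, adjusted p = 7.4e-06). The serine protease genes followed the same order of fractions: Elane, neutrophil elastase, went from -0.31, -0.73 and -0.33 to 2.21, 1.77 and 3.31 (2.89 ± 0.52, adjusted p = 0.00066). Ctsg, cathepsin G, went from 5.20, 4.91 and 5.65 to 7.89, 7.75 and 8.19 (2.69 ± 0.53, adjusted p = 0.0015), and Prtn3, proteinase 3, from 2.84, 2.49 and 3.07 to 5.15, 5.05 and 5.37 (2.39 ± 0.40, adjusted p = 0.00036). In none of these genes did a PreGM array overlap a KLS array.

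Mpo, myeloperoxidase, was already bright in KLS, at 7.12, 7.0 and 7.54, and reached 9.26, 9.19 and 9.36 in PreGM (2.05 ± 0.60, adjusted p = 0.020). Ms4a3, a membrane protein of granulocyte-monocyte progenitors, went from 1.23, 0.75 and 1.49 to 3.56, 3.10 and 4.75 (2.65 ± 0.49, adjusted p = 0.00085), and Cst7, a cysteine protease inhibitor, from 2.07, 1.97 and 2.50 to 3.96, 3.84 and 4.42 (1.89 ± 0.47, adjusted p = 0.0070). Clec5a (2.91, with another probe at -0.50), Plac8 (1.83), Alas1 (1.48) and Hk3 (1.22) completed the genes called higher. Not called were the lysozyme genes Lyz2 (-0.27) and Lyz1 (-0.20), the granule proteoglycan gene Srgn (0.23) and Fcnb, a granule lectin (-0.34). Fcnb was higher by 6.28 in GMP than in PreGM, as Elane (4.11), Ms4a3 (3.33), Hp (2.93) and Prtn3 (1.97) were, while Mpo (-0.08) and Ctsg (0.83) were not called at that next step, which shares the PreGM arrays.

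The 250 bases before the start of 4 genes are shown because the motif GGAAGTG, of the kind PU.1 binds, lies in each, in 3 gained granule genes and in C1qc, 1 of the macrophage genes lost. They are from RefSeq on GRCm38.p6, written 5′ to 3′ on the gene's strand, with the motif in capitals; it begins 93 bases before the start in Prtn3 (chr10:79879417-79879666, plus strand), 55 in Ms4a3 (chr19:11640852-11641101, minus strand), 62 in Cst7 (chr2:150570165-150570414, plus strand) and, on the opposite strand and so read as CACTTCC, 196 in C1qc (chr4:136892915-136893164, minus strand).
Prtn3: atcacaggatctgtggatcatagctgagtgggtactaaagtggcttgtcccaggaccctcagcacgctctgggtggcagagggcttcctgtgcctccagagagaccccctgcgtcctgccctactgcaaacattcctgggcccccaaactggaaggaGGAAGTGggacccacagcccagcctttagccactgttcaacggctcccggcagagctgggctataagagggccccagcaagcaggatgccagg
Ms4a3: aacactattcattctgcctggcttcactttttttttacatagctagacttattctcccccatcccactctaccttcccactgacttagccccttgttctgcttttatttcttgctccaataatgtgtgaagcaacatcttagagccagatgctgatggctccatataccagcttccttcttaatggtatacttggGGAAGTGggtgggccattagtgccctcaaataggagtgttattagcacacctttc
Cst7: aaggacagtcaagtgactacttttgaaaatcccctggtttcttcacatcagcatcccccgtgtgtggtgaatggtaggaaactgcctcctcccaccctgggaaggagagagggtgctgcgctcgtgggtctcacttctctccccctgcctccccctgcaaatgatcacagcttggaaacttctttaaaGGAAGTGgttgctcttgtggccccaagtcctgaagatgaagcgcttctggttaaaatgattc
C1qc: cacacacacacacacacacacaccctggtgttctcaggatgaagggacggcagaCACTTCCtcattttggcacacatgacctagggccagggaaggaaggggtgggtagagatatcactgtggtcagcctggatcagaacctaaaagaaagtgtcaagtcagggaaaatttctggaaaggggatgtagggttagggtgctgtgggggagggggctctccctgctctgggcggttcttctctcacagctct

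Searched on both strands of these 250-base windows, GGAAGTG was found in 3 of 10 granule genes called higher that had an entry (30.0%), in 24 of 235 genes called higher (10.2%), in 62 of 736 called lower (8.42%) and in 1234 of 11442 genes tested (10.8%). The motif TTGCNNAA, of the C/EBP kind, was in 0 of the 10 granule genes, 11.5% of genes called higher, 9.24% of genes called lower and 7.96% of genes tested. The share of GGAAGTG among all genes called higher was thus near that of all genes tested. A match describes the letters in the window and is no evidence of a bound site.

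Secondary and tertiary granule genes did not share this gain. Of 14 tested, 2 were called higher and 1 lower, with a median of -0.99 (-0.71 with genes below background at their bound). The shares over all probes were 2.11% higher and 6.52% lower, so the 1 gene lower is near that share. Mmp8, neutrophil collagenase, rose from -5.60, -4.39 and -7.23, with 1 KLS array above background, to -2.55, -2.76 and -2.63, and Ltb4r1, a leukotriene receptor, by 1.5. S100a8, a subunit of the calprotectin complex of neutrophils, was at 2.46, 2.38 and 2.78 in KLS and at 0.11, -0.23 and 3.07 in PreGM (-1.56 ± 0.68, adjusted p = 0.10).

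Lactoferrin, Ltf, showed the same split, at -1.15, -1.28 and -1.38 in KLS and -3.80, -3.75 and -0.12 in PreGM, and so did Camp (PreGM -2.81, -3.17 and -0.02) and Ngp (-3.53, -3.64 and -0.66). PreGM replicate 3 alone was above KLS in these genes while replicates 1 and 2 were below. Without PreGM replicate 3 the list gave 7 genes called lower. In GMP, S100a8 was higher than in PreGM by 5.97.

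Transcription factors of the myeloid lineage split into 6 called higher and 1 lower of 21 tested. Irf8, the monocyte and dendritic cell factor, was at 2.96, 2.81 and 2.82 in KLS and at 5.52, 5.50 and 5.51 in PreGM, a rise of 2.65 ± 0.59 (adjusted p = 0.0037) that was not called with PreGM replicate 3 alone (2.65, adjusted p = 0.080). Cebpa, the factor needed for granulocyte-monocyte progenitors, went from 0.40, 0.59 and 0.67 to 2.05, 1.96 and 2.59 (1.65 ± 0.31, adjusted p = 0.00095). Cebpd went from 1.91, 1.47 and 1.53 to 2.97, 3.06 and 3.40 (1.51 ± 0.16, adjusted p = 3.1e-06).

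Zeb2, a repressor required for monocyte and dendritic cell fates, rose by 1.41 ± 0.11 (adjusted p = 9.6e-08) and Batf3 by 1.31; with Spi1 these complete the 6. Klf4, a monocyte factor that is also an immediate early gene, fell from 5.88, 6.36 and 6.76 to 3.52, 3.50 and 3.52 (-2.82 ± 0.22, adjusted p = 1.4e-07). Gfi1, the granulocyte repressor, was at 1.94, 2.06 and 2.07 in KLS and 0.64, 0.75 and 2.31 in PreGM (-0.79, adjusted p = 0.41), with PreGM replicate 3 again apart, and was higher by 2.18 in GMP. Runx1 (0.65), Myb (0.25), Myc (0.24) and Cebpb (-0.48) were not called. Irf8 (-0.32), Cebpa (0.31) and Spi1 (0.23) were not called between PreGM and GMP, whereas Cebpd rose again, by 1.20. Spike-in scaling ended the calls of Cebpd, Zeb2, Batf3 and Spi1 in PreGM against KLS.

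Of 25 myeloid surface receptor genes tested, 8 were called higher and 3 lower, with a median of 0.87. Ccr2, the receptor that brings monocytes out of marrow, was at -3.39, -3.17 and -3.57 in KLS and at 0.52, 0.55 and 0.99 in PreGM (4.06 ± 0.34, adjusted p = 3.3e-07). Cx3cr1, the fractalkine receptor of monocytes, went from -4.01, -4.12 and -3.92 to -0.72, -0.98 and -0.86 (3.16 ± 0.34, adjusted p = 5.1e-06). Csf1r, the receptor for the macrophage growth factor M-CSF, went from 0.93, 0.45 and 0.06 to 2.66, 2.45 and 2.42 (2.03 ± 0.28, adjusted p = 6.4e-05).

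Ly86, which pairs with the TLR relative RP105, rose by 3.04 ± 0.49 (adjusted p = 0.00027), Ly6c1 by 2.23, Clec12a by 1.49, Csf2rb, the shared chain of the IL-3, IL-5 and GM-CSF receptors, by 1.27 and Fcer1g by 1.26. Lower were Fcgr1, the high-affinity IgG receptor (1.06, 0.18 and -0.30 in KLS; -3.88, -3.83 and -2.97 in PreGM), Clec4a2 (-3.40) and Pilra, at least 13.8-fold lower. Csf3r, the G-CSF receptor, changed by -0.27 and Csf2ra by 0.19, neither called. Clec4a2 was higher by 6.05 in GMP than in PreGM.

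Genes of innate sensing were mixed, 4 higher and 4 lower of 20 tested. Mefv, which encodes pyrin, gave 1 of the largest rises measured on all 6 arrays, from -2.86, -2.89 and -2.68 to 2.18, 1.72 and 1.58 (4.64 ± 0.19, adjusted p = 2.2e-10). Nlrc4, an inflammasome sensor, rose by 1.95. Tlr2 was at 0.35, 0.09 and -0.14 in KLS and 2.66, 2.41 and 0.64 in PreGM (1.81), and was not called with PreGM replicate 3 alone (0.55, adjusted p = 0.42).

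Tlr4, the receptor for lipopolysaccharide, fell by 2.32 on the log2 scale, its partner gene Ly96 by 1.14, Tlr7 by 1.62 and Nod2 by 1.43. Pycard (0.84) and Casp1 (0.75) were not called. All 6 subunits of the phagocyte NADPH oxidase had changes above 0, of which Ncf1 was called (1.16 ± 0.24, adjusted p = 0.0020; not under spike-in scaling, where the smaller changes turn below 0). The membrane subunit gene Cybb changed by 0.31 in PreGM and was higher by 3.78 in GMP than in PreGM.

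Chemokines and their receptors gave 6 called higher and 4 lower of 25, beside 2.11% and 6.52% of all probes. Beside Ccr2 and Cx3cr1, Ccl9 (2.48), the neutrophil receptor Cxcr2 (2.40) and Ccl5 (2.02) were among the genes that rose; Cxcr2 was not called with slide as a fixed term (adjusted p = 0.056). Lower were the platelet chemokines Pf4 (-1.36) and Ppbp (at least 3.05-fold), Ccr9 (-1.74) and Ccl8 (at least 3.61-fold). The plot of gained genes by array shows how far these rises stood from the spread between arrays.

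**Figure D2:**
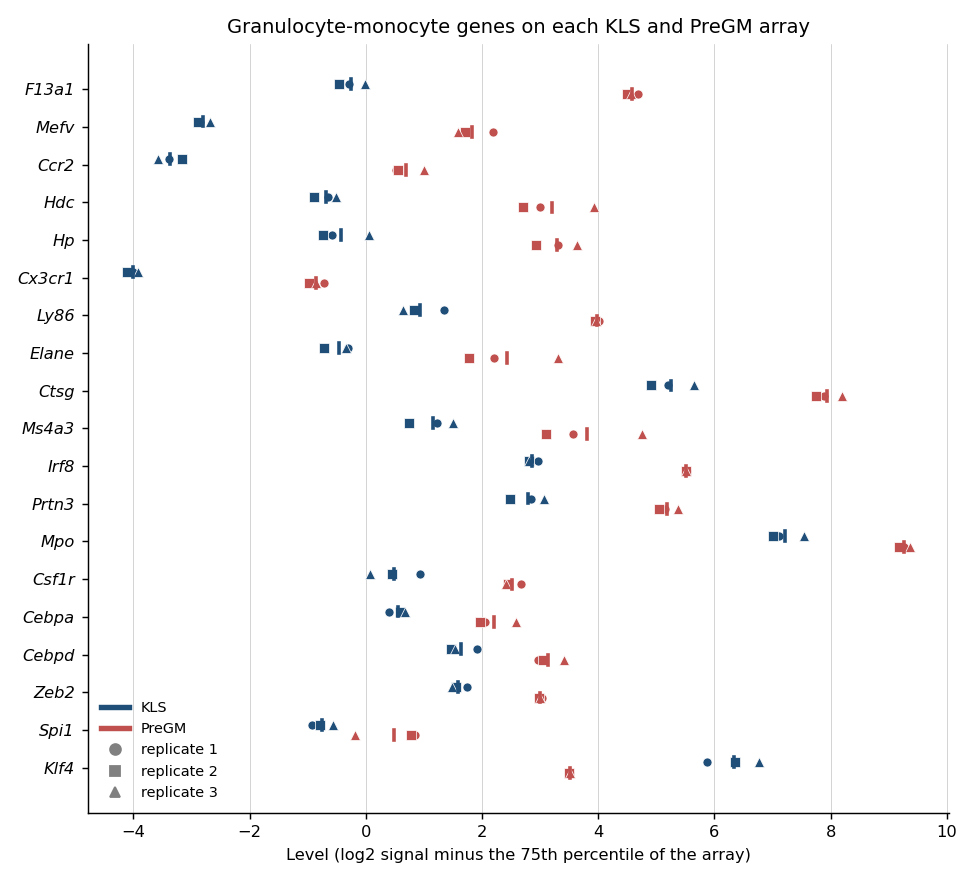
Log2 signal relative to the array's 75th percentile (horizontal axis) for 19 genes of granulocytes, monocytes and mast cells on the 3 KLS (blue) and 3 PreGM (red) arrays, with a circle, square and triangle for replicates 1, 2 and 3 and a vertical tick at each fraction's mean. PreGM arrays lie to the right of KLS for the genes called higher, such as F13a1 (4.84) and Mefv (4.64), and to the left for Klf4 (-2.82).

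Genes of mast cells, basophils and eosinophils went both ways, with 5 called higher, 3 lower and 5 not called of 13 tested. Hdc, which makes histamine, was at -0.65, -0.89 and -0.52 in KLS and at 2.99, 2.71 and 3.93 in PreGM (3.90 ± 0.25, adjusted p = 2.1e-08). Cpa3, the mast cell carboxypeptidase, went from 0.03, 0.08 and 0.38 to 2.98, 2.79 and 4.36 (3.21 ± 0.67, adjusted p = 0.0021; not called with slide as a fixed term). Mcpt8, a basophil protease, went from -0.68, -0.86 and -0.38 to 1.66, 1.56 and 2.29 (2.48).

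Ms4a2, the IgE receptor β chain, was below background on every KLS array and above it on every PreGM array, at least 8.12-fold higher, and Epx, eosinophil peroxidase, rose by 2.10. Prg2, the eosinophil major basic protein, fell by 2.46 on the log2 scale, Cma1 by 1.55 and Prss34 by 1.05, and Prg2 (8.91) and Prss34 (5.08) were higher in GMP than in PreGM. PreGM replicate 3 was the highest PreGM array for Hdc, Cpa3, Mcpt8 and Ms4a2, and every PreGM array lay above KLS.

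Several of the 10 largest rises lay outside the lists. F13a1, coagulation factor XIII A, made by monocytes and platelets, was at -0.28, -0.46 and -0.02 in KLS and at 4.68, 4.50 and 4.57 in PreGM (4.84 ± 0.71, adjusted p = 0.00012). Csrp3 (3.90 ± 0.39), the sugar transporter gene Slc2a6 (3.83 ± 0.28), Igsf6 (3.41) and Rab7b, a small GTPase of the late endosome (3.32 ± 0.15), followed. Acod1, which makes itaconate in activated macrophages, was at -3.26, -3.05 and -3.57 in KLS and 2.04, 1.58 and -3.02 in PreGM. Its rise of 3.49 thus came from PreGM replicates 1 and 2, and without replicate 3 it was 5.10. Klra7 (at least 4.60-fold), Opn3 (at least 2.81-fold), Il6 (at least 2.76-fold) and the kinase gene Txk, below background in KLS like the others, were measured on PreGM arrays only.

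On the side of loss, transcription factors of stem and multipotent cells gave 16 called lower and 0 higher of 39 tested (1 higher at an unadjusted limma p below 0.05), with a median of -0.94 (-0.68 at the bounds). Hlf, a factor that marks stem cells, was at 4.08, 4.13 and 4.22 in KLS and at 1.77, 1.83 and 1.31 in PreGM (-2.51 ± 0.26, adjusted p = 3.9e-06). Meis1, the HOX cofactor, went from 1.71, 1.69 and 2.17 to -0.31, -0.04 and 0.59 (-1.77), and Prdm16 from 0.57, 0.54 and 0.64 to -1.49, -1.28 and -1.17 (-1.90). Each of these fell on every array without overlap.

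Mycn, which supports stem cells together with Myc, went from 1.01, 1.48 and 1.60 to -1.61, -1.34 and -0.60 (-2.55 ± 0.42, adjusted p = 0.00034), Nkx2-3 from 1.53, 1.12 and 1.22 to -2.09, -1.68 and -3.03 (-3.56 ± 0.37) and Tcf15, a factor of quiescent stem cells, from -0.99, -0.69 and -0.47 to -4.38, -3.83 and -5.22 (-3.76 ± 0.84, adjusted p = 0.0035), with 2 PreGM arrays above background. The HOX genes Hoxa10 (-2.66), Hoxb2 (-2.06), Hoxb3 (-1.76), Hoxa5 (-1.41) and Hoxa9 (-1.19) and Mecom (-1.27) were also lower. Lmo2 (-0.94), Erg (-0.64), Lyl1 (-0.15), Gfi1b (-0.09) and Fli1 (-0.02) were not called. The count varied with the processing, from 10 with slide as a fixed term or with PreGM replicate 3 alone to 24 under spike-in scaling, and with slide as a fixed term neither Tcf15 nor Mycn was called.

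Surface and signalling genes of stem cells gave 22 lower and 0 higher of 42 (also 0 at an unadjusted limma p below 0.05), with a median of -1.29. Fgd5, a guanine exchange factor used to mark stem cells, went from -0.60, -0.68 and -0.68 to -4.30, -4.53 and -4.70 (-3.86 ± 0.24, adjusted p = 1.8e-08). Procr, which encodes EPCR, went from 2.81, 2.70 and 2.83 to -0.47, -0.12 and -0.41 (-3.12 ± 0.31, adjusted p = 2.3e-06). In these genes the arrays of a fraction differed by little beside the distance between fractions.

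Cdkn1c, the p57 inhibitor of the cell cycle in quiescent stem cells, went from 0.10, 0.19 and 0.43 to -2.40, -2.33 and -2.25 (-2.57 ± 0.19, adjusted p = 9e-08). Trpc6 (-3.23), Jam3 (-3.17), Socs2 (-2.54), Robo4 (-2.04) and Vwf (-1.39) were lower too. Adgrg1 (-0.16), Thy1 (-0.24) and Ifitm1 (-0.67) were not called. Across settings the list gave between 17 and 31 genes called lower.

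**Figure D3:**
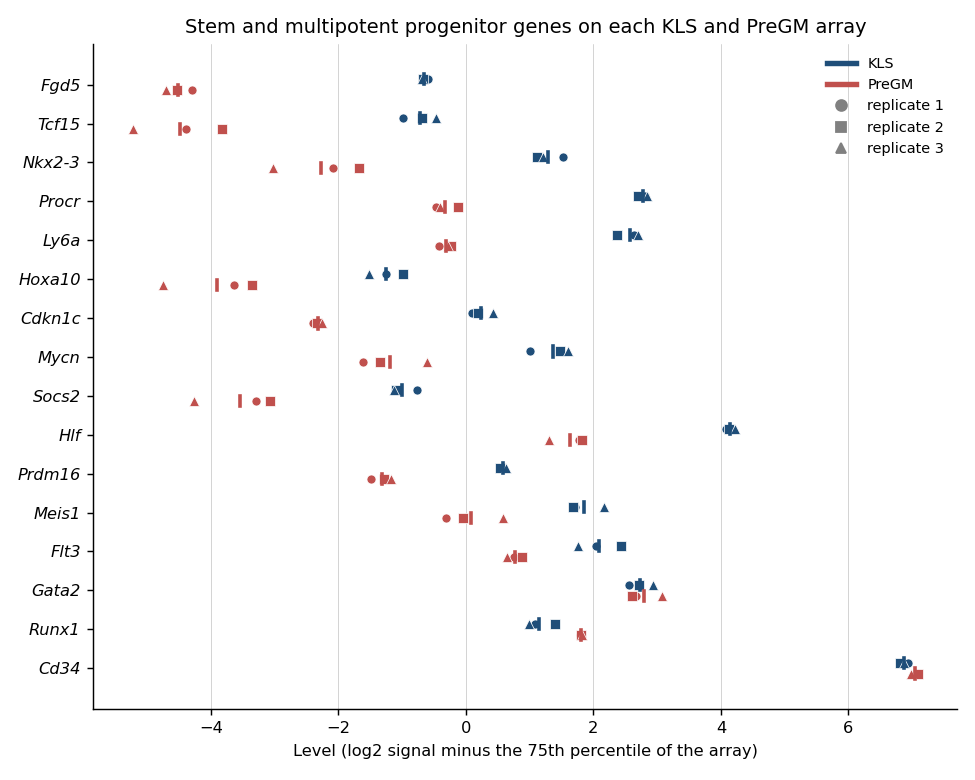
Log2 signal relative to the array's 75th percentile (horizontal axis) for 16 genes of stem and multipotent progenitor cells on the 3 KLS (blue) and 3 PreGM (red) arrays, with marker shapes for replicates 1, 2 and 3 and a vertical tick at each fraction's mean. PreGM arrays lie to the left of KLS for genes such as Fgd5 (-3.86), Procr (-3.12) and Hlf (-2.51), while the fractions overlap for Gata2 (0.05).

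Lymphoid priming genes, expressed at low level by multipotent cells before lymphoid commitment, gave 9 lower and 0 higher of 26 (3 higher at an unadjusted limma p below 0.05), with a median of -0.78 (-0.44 at the bounds). Ltb, lymphotoxin β, went from 3.92, 3.88 and 4.36 to 1.91, 2.05 and 1.18 (-2.34), Hes1, a Notch target, changed by -2.40, and Rag1, the recombinase gene, was above background on 2 KLS arrays and no PreGM array, at least 1.68-fold lower. Dntt, the terminal transferase of lymphoid progenitors, was at 5.74, 5.73 and 5.51 in KLS and still at 4.66, 4.87 and 4.23 in PreGM (-1.07, adjusted p = 0.054), and was lower by 7.05 in GMP than in PreGM. With slide as a fixed term neither Ltb (adjusted p = 0.062) nor Hes1 (adjusted p = 0.052) was called, and Rag1 fell short of 2-fold with normexp background correction (-0.37). Il7r (-0.19), Satb1 (-0.16) and Ikzf1 (-0.76) were not called, and Tcf7 was not called with its brightest probe (0.93).

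The GIMAP GTPases, which support lymphocyte survival, gave 4 lower of 7. Gimap6 went from 4.25, 4.19 and 3.98 to 2.82, 2.88 and 1.81 (-1.64), and Gimap7 was at least 5.26-fold lower. Gimap4 was above background on 1 of the 6 arrays and Gimap3 on none, so their calls have no measured size. Of 9 SLAM family genes, Slamf1 and Slamf9 (-2.26) were lower, while Cd48 changed by 0.63 (adjusted p = 0.069) and Cd244a by -0.27.

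Macrophage transcripts were among the largest losses. Of 37 listed genes, 35 were matched, 34 were tested, 27 were called lower and 1, Csf1r, higher, with a median of -3.80 (-3.06 at the bounds). Of the 10 largest falls measured on all 6 arrays, 6 were on this list. Of the 5 largest falls to below background, only Mrc1 was. The list was chosen with earlier results of these data known, so this overlap is no separate support. Vcam1, an adhesion molecule of marrow macrophages and stroma, was at 4.17, 3.56 and 2.64 in KLS and at -3.77, -4.38 and -2.85 in PreGM (-7.12 ± 0.43, adjusted p = 1.1e-08). The complement gene C1qc was at 3.49, 2.56 and 2.02 in KLS and at -3.90, -4.48 and -4.24 in PreGM, and Fcna, a ficolin of macrophages, was at 3.10, 2.02 and 1.37 in KLS and at -4.92, -4.67 and -3.78 in PreGM (-6.62). KLS replicate 1 was the brightest and KLS replicate 3 the dimmest of the 3 in each.

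The loss took in genes of iron and heme handling: Slc40a1, the iron exporter ferroportin, changed by -5.81, Hmox1, heme oxygenase, went from 4.47, 3.68 and 3.08 to -0.83, -0.99 and -0.55 (-4.53), and Spic, the factor of red pulp and marrow iron-recycling macrophages, changed by -4.00. Scavenging and efferocytosis genes were lower as well: Cd5l (-6.48), Mrc1, the mannose receptor (at least 47.2-fold), Mertk (at least 17.7-fold), Axl (-5.37, with 1 PreGM array above background), Timd4 (at least 5.92-fold) and Marco (-2.67). Adgre1, which encodes F4/80, was at 1.76, 1.0 and 0.31 in KLS and at -1.65, -1.78 and -1.47 in PreGM (-2.66).

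Not every listed gene was called: Apoe (0.25), Ctsd (-0.35), Ctsb (-0.97) and Acp5 (-0.76) were not. Nor was Siglec1, a marker of marrow macrophages, with its brightest probe (-1.08, with another probe at -4.76). The linear signal summed over the list was between 115.8 and 231.1 times the 75th percentile on the KLS arrays and between 64.3 and 75.7 on the PreGM arrays. The median level over the list was 1.1, 0.39 and -0.31 on KLS replicates 1, 2 and 3 and -3.81, -3.99 and -3.17 on the PreGM arrays. Mrc1, Mertk, Timd4 and Folr2 were among the 5 tested genes of the list not well above background on any PreGM array. The lineage cocktail held Mac1, but whether any macrophage passed either gate was not tested.

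The level of these genes in other fractions depended on the gene and on the measure. The median level over the list had a mean over 3 arrays of 0.39 ± 0.71 (SD, n = 3) in KLS, -3.66 ± 0.43 in PreGM, -3.99 ± 0.59 in PreMegE, -3.32 ± 0.42 in GMP and -0.15 ± 0.18 in Mac1Gr1, the mature myeloid fraction. The summed signal, in which bright genes such as Apoe weigh most, was between 132.8 and 163.7 in PreMegE, within the KLS range, and between 70.9 and 78.4 in GMP. Between PreGM and GMP, 7 of the 34 genes were called higher in GMP and 4 lower, among them Vcam1 by 6.21, to a mean of 2.54 beside 3.46 in KLS, and Slc40a1 by 3.89. Without KLS replicate 1, the brightest for this list, 25 genes were called lower. Beside every gene lost from KLS, the part of macrophage transcripts in the result was not tested.

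**Figure D4:**
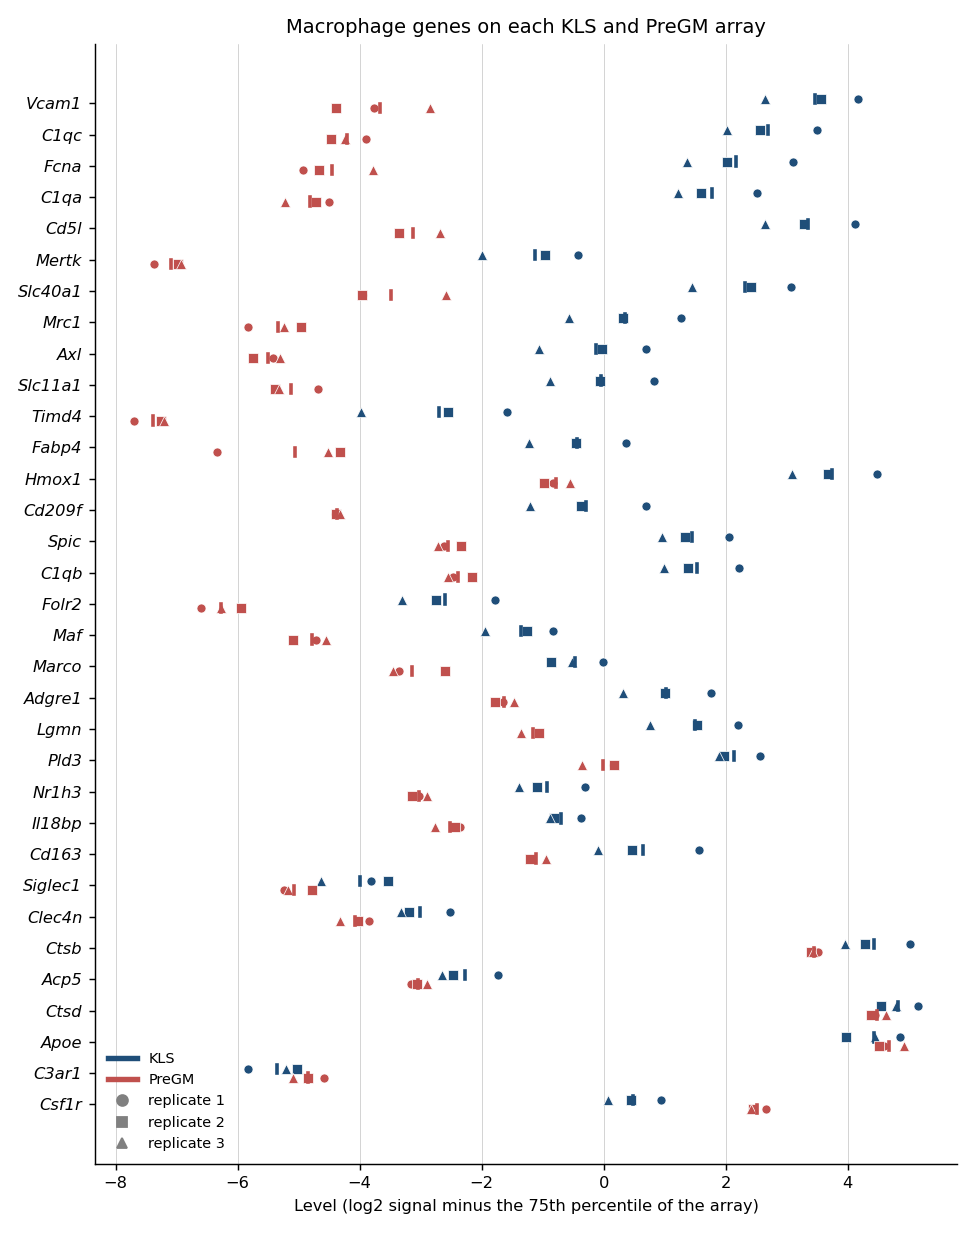
Log2 signal relative to the array's 75th percentile (horizontal axis) for 33 of the 34 tested macrophage genes on the 3 KLS and 3 PreGM arrays. The PreGM arrays lie to the left of all KLS arrays for most genes, by 7.12 for Vcam1, while Csf1r lies to the right (2.03) and Apoe (0.25) overlaps.

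The remaining largest falls included Lpl, lipoprotein lipase (-4.35), the growth factor gene Gas6, a ligand of Axl and Mertk (1.51, 1.37 and 1.60 in KLS; -4.18), Ccr3 (-4.15) and the transporter gene Slco2b1 (-5.54). Igf1 was at least 44.3-fold lower, Ms4a7 at least 26.1-fold and the ribonuclease gene Ear1 at least 24.1-fold. Lpl, Ccr3, Slco2b1, Igf1, Ms4a7 and Ear1 all shared the macrophage list's order among KLS arrays, with replicate 1 the brightest and replicate 3 the dimmest, whereas Gas6 did not. Other genes named above, such as Fcgr1, Csf1r and Tlr2, had this order too. What the order reflects was not tested.

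Some transcripts of other lineages were lower in PreGM, though most genes on the B cell, erythroid, and T and NK cell lists were not called. Jchain, the joining chain of IgM and IgA, gave the largest bound, from 1.63, 1.58 and 1.64 in KLS to below background in PreGM, at least 118.5-fold. The plasma cell genes Mzb1 (-2.48) and Pou2af1 (-1.73) fell with it, 4 of 6 tested, while Xbp1 changed by 0.06. Of 12 B cell genes 4 were lower, among them Bank1 (at least 6.84-fold), Ebf1 (at least 2.14-fold) and Vpreb3 (-1.78), but Cd79b (0.21) was not called. The list's summed signal overlapped, from 8.68 to 11.9 in KLS and from 8.84 to 10.8 in PreGM. With slide as a fixed term or PreGM replicate 3 alone, neither Ebf1 nor Vpreb3 was called, and Ebf1 was not with normexp or the 6 arrays alone. Jchain was even between KLS arrays, unlike the macrophage genes.

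Erythroid genes gave 5 lower of 13, with Hba-a1, α-globin, going from 2.38, 1.91 and 2.34 to -1.01, -1.02 and -0.01 (-2.89), Alas2 changing by -2.68, Rhd by -2.25 and Car2, carbonic anhydrase 2, going from 4.94, 5.17 and 4.99 to 2.81, 2.91 and 2.89 (-2.16). Klf1, the erythroid factor, changed by 0.53 and Epor by -0.44, neither called. Megakaryocyte genes gave 6 lower of 13, including Cavin2 (-2.19), Vwf, Pf4 and Ppbp. Of 12 stromal and endothelial genes tested 4 were lower, Emcn (2.24, 2.20 and 2.18 in KLS; 0.56, 0.62 and 0.14 in PreGM), Tie1 (-1.54), Kdr (-1.32) and Stab2, whose call was lost without KLS replicate 1 (-0.92, adjusted p = 0.051). T and NK cell genes gave 2 higher, Klrd1 (1.40) and Gzma (above background on 1 PreGM array), and 1 lower, Cd28 (at least 3.27-fold), of 15. Over all probes 2.11% were called higher and 6.52% lower.

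Immediate early genes, which respond within minutes to growth factors and to handling of cells, gave 13 lower and 0 higher of 31 (2 higher at an unadjusted limma p below 0.05), with a median of -0.99. Fos was at 6.95, 6.99 and 7.18 in KLS and at 4.31, 4.57 and 5.68 in PreGM (-2.19 ± 0.24, adjusted p = 5.8e-06). Klf4, Klf6 (-1.89), Fosb (-1.84), Zfp36 (-1.77), Jun (-1.61), Dusp1 (-1.56), Ier2 (-1.36) and Egr1 (-1.24) were lower with it. Junb (-0.89) and Nr4a1 (-1.12) were not called, and the cytokine genes Tnf (1.20) and Il1b (1.72) had changes above 0 that were not called either. Klf4 and Zfp36 were measured without overlap, but Zfp36 was not called with PreGM replicate 3 alone against KLS.

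The inducible heat shock genes separated KLS arrays from each other as well as from PreGM. Hspa1a was at 4.41, 6.06 and 6.15 in KLS and at 3.53, 3.45 and 3.01 in PreGM (-2.21), Hspa1b at 1.89, 3.79 and 3.77 and at 0.89, 0.84 and 0.50 (-2.41), and Hspb1 at -1.77, 1.21 and 0.93 and at -2.64, -2.64 and -3.19 (-2.94). KLS replicate 1 was lower than replicates 2 and 3 in all 3 genes, and without it 6 of 23 genes of the list were called lower instead of 3. With all arrays, 6.52% of all probes were called lower. Chaperones of the endoplasmic reticulum such as Calr (0.92) and Pdia6 (0.77) did not reach 2-fold.

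Interferon-stimulated genes gave 11 lower and 1 higher of 33, with a median of -0.67. Iigp1, an immunity-related GTPase, was at 1.1, 1.28 and 1.54 in KLS and at -1.80, -1.59 and -1.60 in PreGM (-2.97 ± 0.33, adjusted p = 6.8e-06). Ifit3 went from -1.20, -1.40 and -1.93 to -4.24, -4.41 and -4.62 (-2.91), Oas2, an RNA sensor, changed by -2.52 ± 0.14 (adjusted p = 5.1e-09), Ifi44 by -2.08 and Irf7, the amplifier of interferon signalling, by -1.56. Gbp3 was higher by 1.16. Irf1 (-0.50) and Ifitm2 (0.53) were not called. Across settings between 8 and 21 of the genes were lower.

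Genes of energy and growth shifted together by less than 2-fold. All 49 oxidative phosphorylation subunits tested had changes above 0 on this scaling, with a median of 0.63; none reached 2-fold, but 46 had an adjusted p below 0.05, against 4123 probes of all tested (14.0%) that were higher at any fold. Cox7b, a subunit of cytochrome oxidase, was at 5.01, 4.84 and 5.55 in KLS and at 6.04, 5.99 and 6.11 in PreGM (0.92 ± 0.17), followed by Cox6c (0.87), Ndufa1 (0.86), Cycs (0.86) and Cox5a (0.84). The lowest were Ndufs1 (0.28), Sdha (0.30) and Ndufs7 (0.36). The size depended on scaling: the median was 0.34 with 30 genes past the test under quantile scaling, and 0.02 with 0 under spike-in scaling, where the median of all probes was -0.56. Without KLS replicate 3, 7 of them reached 2-fold.

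Ribosome biogenesis and MYC-linked genes had a median of 0.41, with 22 of 37 higher at any fold, among them Srm (0.84), Nhp2 (0.81) and Rrs1 (0.76), and 1 lower, Mycn. Nucleotide and one-carbon synthesis had the same median, with 14 of 26 higher at any fold, led by the mitochondrial enzymes Mthfd2 (0.98) and Shmt2 (0.73). Replication licensing genes had a median of 0.33 with 14 of 35 higher at any fold, such as Mcm5 (0.74) and Cdt1 (0.64), while Pcna changed by 0.03. Of these 3 lists the median turned below 0 under spike-in scaling and stayed above the median of all probes.

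Mitosis genes did not share this shift. Of 25 tested, 0 were called by limma at 2-fold (5 were lower and 0 higher at an unadjusted p below 0.05). At any fold 3 were lower, near the share of all probes (11.7%), namely Cenpf (-0.76), Nusap1 (-0.60) and Kif2c (-0.57). The median was -0.22, while Mki67 changed by -0.12 and Birc5 by 0.19. Among G1 regulators, Cdk6 was higher (1.11 ± 0.17; 0.99 without KLS replicate 2, under 2-fold), Cdkn1c was lower, and Ccne1 (0.87), E2f1 (0.67) and Cdk4 (0.43) were below 2-fold. The plot of cell-state lists sets the even shift of oxidative phosphorylation beside the wider spread of the glycolysis and heat shock genes.

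**Figure D5:**
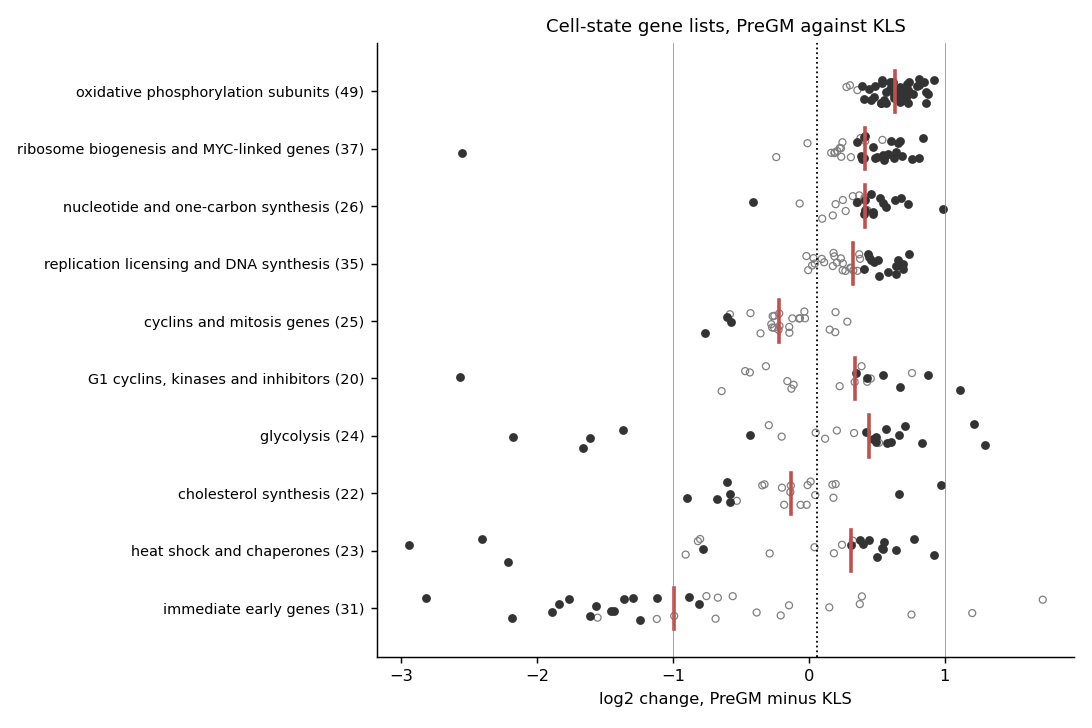
Log2 change, PreGM minus KLS, of every tested gene in 10 cell-state lists; filled points had an adjusted p below 0.05, open points did not, the red line is the list's median, the dotted line the median of all probes (0.06) and the grey lines 2-fold. The 49 oxidative phosphorylation genes all lie above 0 with a median of 0.63, while heat shock genes spread down to -2.94.

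Glycolysis genes were split, with 2 higher and 4 lower of 24 tested at 2-fold, but 12 higher and 5 lower at any fold and a median of 0.44. Pgam1 (1.30) and Hk3, the hexokinase of myeloid cells (1.22), rose, and Pgam1 was not called under quantile or spike-in scaling. Aldoc (-2.18), the glucose transporter gene Slc2a3 (-1.66), Eno2 (-1.61) and Ldhb (-1.37) were lower, while Ldha (0.83), Gpi1 (0.67) and Aldoa (0.56) did not reach 2-fold. Eno2 was not called without PreGM replicate 3 (-0.88, adjusted p = 0.12) or without any 1 of the KLS arrays (adjusted p between 0.056 and 0.063).

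In signalling, Wnt and Notch genes gave 9 lower and 1 higher of 31, with a median of -0.48 (-0.27 at the bounds). Among all probes 6.52% were lower and 2.11% higher. Dtx4, an E3 ligase that acts on Notch, was the gene that rose, from 0.21, 0.23 and 0.27 to 2.56, 2.26 and 2.63 (2.25 ± 0.17). The Wnt factor Tcf7l1 (-2.52) and the Notch targets Hey1 (-2.52), Hes1 (-2.40) and Nrarp (-1.93) were lower, with the ligand gene Jag2 (-1.61). Notch2 (-0.02) and Ctnnb1, β-catenin (-0.08), were not called. The number lower was 5 under quantile scaling, and 5 without KLS replicate 1.

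Cytokine receptors and their feedback inhibitors gave 3 higher, Il1rl1 (2.11), Csf1r and Csf2rb, and 8 lower of 40 tested. Among those lower were the receptors Flt3 and Il1r1 (-1.35) and the feedback inhibitors Socs2, Socs5 (-1.39), Socs3 (-1.19) and Socs1 (-1.13). Il18r1 changed by -2.02 and was not called when KLS replicate 2, KLS replicate 3, PreGM replicate 1 or PreGM replicate 2 was left out (adjusted p between 0.054 and 0.076). Integrins and adhesion genes gave 2 higher, Itgb3 (1.41) and Itgal (1.19), and 6 lower of 34, among them Vcam1, Jam3, F11r (-2.37), Itga9 (-1.55) and Alcam (-1.27). For both lists the shares over all probes were 2.11% higher and 6.52% lower.

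The first erythroid fraction was set against the same PreGM arrays to ask which of these genes differed between the first myeloid and the first erythroid step. Between PreMegE and PreGM, 3556 of 29527 probes (12.0%) were called, 1723 higher in PreMegE (5.84%) and 1833 lower (6.21%). Irf8 was lower in PreMegE than in PreGM by 6.22, Ccr2 by 6.55, Csf1r by 5.92 and Cebpa by 3.13, while Slamf1 was higher by 5.55. Against the KLS arrays, which both comparisons share, Irf8 changed by 2.65 in PreGM and -3.57 in PreMegE, and Ly6a by -2.88 and -5.71.

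At the next myeloid step, GMP against PreGM, 3062 probes (10.4%) were called, 1182 higher and 1880 lower (6.37%) in GMP. Mefv was higher again, by 2.30, and so were Hdc (2.09) and Igsf6 (2.70), whereas F13a1 (0.85), Ccr2 (0.18), Rab7b (0.74) and Slc2a6 (0.04) were not called at that step. Ly6a was higher by 2.40 in GMP than in PreGM, and the Fc receptor gene Fcgr3 by 3.61. Txk (-3.52) and Klra7 (-3.30), both above background in PreGM and not in KLS, were lower in GMP.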

How the data were processed

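Total RNA of each sorted fraction was hybridised to one-colour Agilent whole mouse genome arrays. The deposited files hold 1 array's spot intensity values each, as background-subtracted processed signals that the authors obtained with Feature Extraction 10.7.1.1, with annotation on mm9 per the file headers. A series table of log2 values, which the authors normalized, was used as an alternative.

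Control and outlier spots (80 to 283 an array) were dropped, spots of a probe averaged, and the log2 signal less each array's 75th percentile taken. Where any fraction had all 3 of its arrays well above background, a probe was tested (29527 of 41174), with limma 3.58.1 in R 4.3.3: 1 mean per fraction over 21 arrays, 14 residual degrees of freedom, two-sided, Benjamini-Hochberg adjusted over all probes. The filter favours genes bright in 1 fraction, so list counts describe tested genes only. Accessions were matched to symbols through RefSeq (GRCm38.p6, names and promoters only) for 26690 probes (64.8%); Kit, Cebpe, Tal1, Cd68 and Ear2 had no match. For genes with several probes the brightest over 21 arrays is given. Per list, up to 5 called genes with the largest change and up to 3 of the brightest not called are named, with the sorting antigens, the 3 factors, the 10 largest rises and falls and 5 of each seen in 1 fraction; others were named after their values were seen, and some genes are not reported here. The members and lists were chosen with earlier results of these data known. On simulated data, 171 of 200 probes changed by 2 log2 units (85.5%) were called, and 3 unchanged ones of 29255 probes. Whether replicate numbers pair the samples was not settled. Deviations correlated at 0.0025, 0.245 and 0.126 for equal numbers and from -0.299 to 0.126 for unequal ones. The main fit treated the samples as unpaired. The number of arrays limits the precision.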

Additional observations from a re-analysis of the deposited data

Results flagged for a closer look

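Genes were picked out here where PreGM and PreMegE moved in opposite directions from KLS, both past the test, and PreMegE and PreGM differed when compared directly by limma; both changes share the KLS arrays. Each value is the log2 difference, PreMegE minus PreGM. It equals the change from KLS in PreMegE less that in PreGM, so for genes picked this way the direct comparison adds no separate support.

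Among genes higher in PreGM and lower in PreMegE than in KLS, the transcription factors were Irf8 (-6.22), Cebpd (-3.42), Cebpa (-3.13), Spi1 (-2.67) and Batf3 (-2.65). Receptors and secreted or sensing proteins were Ccr2 (-6.55), Ly86 (-6.29), Ccl9 (-5.97), Csf1r (-5.92), Klrd1 (-5.04), Mcpt8 (-4.92), Ncf1 (-3.73) and Tlr2 (-3.36). Rab7b (-5.28), Slc2a6 (-5.04), Dtx4 (-4.46) and Pgam1 (-2.33) complete those given. Ccr2 was higher than KLS by 4.06 in PreGM and changed by -2.48 in PreMegE, and Csf1r by 2.03 and -3.89.

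Among genes lower in PreGM and higher in PreMegE than in KLS, megakaryocyte and erythroid genes were Cavin2 (6.58), Rab27b (3.96), Rhd (3.81) and Vwf (3.42), with Slamf1 (5.55). The heat shock genes Hspb1 (5.01), Hspa1b (4.15) and Hspa1a (3.83) were of the same kind. Rab27b was not called between PreGM and KLS without KLS replicate 2 (-1.53, adjusted p = 0.059), and not without PreGM replicate 1 (-1.48, with an adjusted p of 0.064).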

How the results depend on the processing

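Of 2549 probes called, the number became 5601 under spike-in scaling, 1213 with normexp background correction, 1268 with 1 probe per gene (14312 tested) and 7563 with no minimum fold. It was between 1843 and 2691 with quantile scaling, the authors' table, other filters, slide as a fixed or random term or the 6 arrays alone, and between 2167 and 2840 when 1 array was left out. For GMP against PreGM spike-in scaling gave 14516, with 505 lower, and leaving out 1 array 2676 to 3505; for PreMegE against PreGM that range was 3192 to 3913. The cause of these shifts was not tested.

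With the replicate number as a block, 2558 probes were called in PreGM against KLS, 3558 in PreMegE against PreGM and 3055 in GMP against PreGM, and none of 145 named calls was lost. Of these 145, quantile scaling ended 5, spike-in scaling 14, normexp 28 and slide as a fixed term 31, and leaving out 1 array 6 to 14. Other named genes not called with slide as a fixed term were Slamf1, Fcgr2b, Il18r1, Eno2, Klrd1, Gzma, Acod1, Klra7, Opn3, Il6, Xist and Ddx3y, and with normexp Slamf1, Slamf9, Batf3, Ccr9, Gimap7, Gimap4, Gimap3, Ppbp, Ebf1, Pou2af1, Cd28, Kdr, Gzma, Klrd1, Eno2, Opn3 and Il6. With PreGM replicate 3 alone Mycn, Itga9, Hspb1, Cavin2, Gimap7 and Gimap4 were not called either. Uncalled Cd34 turned to -0.12, -0.44 and -0.13 under quantile scaling, spike-in scaling and the authors' table. Gata2 turned to -0.18, -0.56 and -0.19 there, and ran from -0.10 without PreGM replicate 3, through -0.04 without KLS replicate 1, to 0.15 without KLS replicate 3. Xist turned to -0.13 with PreGM replicate 3 alone. The median of heat shock genes and of polycomb genes fell below that of all probes under quantile scaling. Signal over background limits genes dim in a fraction to bounds.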

Other observations

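Of 10 MHC class II and 13 MHC class I genes tested none was called by limma at 2-fold, beside 8.63% of all probes. Lists this short cannot tell that from the share of all probes. At any fold 0 class II genes passed, and 4 class I genes did (3 higher and 1 lower). Over all probes 14.0% were higher and 11.7% lower at any fold. At an unadjusted p below 0.05 the counts were 0 and 6. H2-Ab1 changed by 0.44 and Cd74, the invariant chain, by -0.10 in PreGM against KLS, and both were lower in GMP than in PreGM, by 2.23 and 3.19. Of 11 dendritic cell genes tested, Batf3 was higher and Ccr9, Irf7 and Flt3 were lower, while Itgax changed by 0.11.

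Of 22 polycomb and DNA methylation genes 1 was called, beside 8.63% of all probes. It was Cbx7, a polycomb subunit of stem cells, at -0.01, -0.26 and -0.19 in KLS and -2.01, -1.80 and -1.42 in PreGM (-1.59 ± 0.16, adjusted p = 2.9e-06). In the BCL2 family, Pmaip1, which encodes the killer protein NOXA, was higher (1.60; not called under spike-in scaling, with the 6 arrays alone, with slide as a fixed term or with PreGM replicate 3 alone, where it was 0.22), and Mcl1, a survival protein, was lower (-1.04; -0.99 without KLS replicate 3, under 2-fold). Of 22 cholesterol synthesis genes none was called by limma at 2-fold (9 passed an unadjusted p of 0.05), with Fdps at 0.97 and the regulator Srebf2 at -0.90. Of 28 TGF-beta and BMP genes 1 was called, Acvrl1 (-1.55), beside 8.63% of all probes. It was not called without KLS replicate 1 (adjusted p = 0.098), KLS replicate 2 (0.15), PreGM replicate 1 (0.074) or PreGM replicate 3 (0.13).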
